A study of Homo sapiens with 48 samples.

Results

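The nuclear genes of respiratory complexes II to V were followed in HK-2 cells, which are immortalised epithelial cells of the human proximal kidney tubule, after exposure to Nnm, Ra, Fk or CsA, as the labels call the compounds, or to vehicle. Members were all genes with a probe set annotated to a single symbol of the SDHA to SDHD, UQCR, CYC1, CYCS, COX4 to COX8 or ATP5 families. Of 48 such genes, 41 had a probe set above log2 4 in at least 3 arrays, among 11356 genes tested in all, and each gene was read from its probe set of highest mean. The 41 comprised 3 genes of complex II, 7 of complex III, cytochrome c, 12 of complex IV and 18 of complex V, of which 1, ATP5MC2P1, is a pseudogene. SDHB of complex II and UQCRFS1 of complex III had no probe set annotated to them alone, so neither complex is covered in full.

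The 48 arrays fell into 16 groups of 3, labelled biological replicates, in 3 sets with vehicle controls of their own. In the CsA set, whose titles carry the words lab 3, CsA and its own controls were harvested at 12 h and 48 h, so laboratory and compound cannot be told apart. The second set shared 1 group of controls per time between Ra and Fk, also at 12 h and 48 h. In the Nnm set, high-dose and low-dose cells shared controls harvested at 24 h and 48 h. All groups were the same line in the same hormone- and growth-factor-supplemented medium, and the labels give neither full compound names nor amounts. Values are deposited log2 expression values, and each change is a log2 difference, treated minus vehicle within a set and time, with its SE. A gene was called when its limma p-value, adjusted by Benjamini-Hochberg over all 11356 genes, was under 0.05; these p-values measure the spread between the arrays, and the number of arrays limits the precision. In bulk RNA of this kind, fewer cells expressing a gene and less RNA per cell cannot be told apart.

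The members encode the machinery of oxidative phosphorylation downstream of NADH dehydrogenase. Complex II passes electrons from succinate to ubiquinone, complex III passes them on to cytochrome c, complex IV hands them to oxygen, and complex V, the ATP synthase, makes ATP from the proton gradient. Proximal tubule cells of the kidney reabsorb most of the filtrate and depend heavily on this route for ATP.

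The label of the line was checked against markers. KRT8, KRT18, KRT19, EPCAM, CDH6 and PAX8 were above log2 9 in every array, whereas the brush border and endocytic genes ANPEP, MME, AQP1, LRP2 and CUBN did not pass the filter on low values. The others of this list that passed it were CDH2 (8.54 to 10.68), SLC3A1 (6.15 to 10.47), CDH1 (2.94 to 9.66) and GGT1 (3.83 to 4.91). Leukocyte markers were all below the filter. Of 6 fibroblast markers DCN and LUM passed it and were bright, at 8.04 to 12.36 (median 10.85) and 6.81 to 10.48 (median 9.94), and the others did not pass. Array Ra 48 h replicate 2 stood apart, with an upper quartile of all probe sets of 6.191 against 6.832 to 7.234 in the other arrays, so results on Ra at 48 h are given with and without it.

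Promoters were available for 33 of the 41 members in RefSeq on GRCh38.p14, from 250 bases before the annotated start to 50 after it. They were searched on both strands for core motifs of 3 factors known to act on respiratory genes. The NRF1 motif, GCGC then any base then TGCGC, occurred in 9 of the 33 (27.3%), against 6.3% of all 27305 promoters of the table. The GABPA motif CCGGAAG occurred in 13 (39.4%), against 10.7% of all promoters, and the YY1 motif AAGATGGCG in 2 (6.1%), against 1.8%. Matches of different motifs overlapped in 0 member promoters. Of the members with a promoter that fell in at least 1 Nnm comparison, 4 of 14 held the NRF1 motif, 5 of 14 the GABPA motif and 2 of 14 the YY1 motif, against 5 of 19, 8 of 19 and 0 of 19 among those with a promoter that fell in none. CYC1, ATP5F1B and ATP5F1D, which fell in 4 Nnm comparisons each, had no promoter available and are missing from these counts. A match describes the letters only, and binding was not measured.

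The promoters of 4 members are shown for their different matches. SDHA and UQCRC1 fell in all Nnm comparisons below, CYCS fell there too without holding any of the motifs, and COX4I1 was called in no comparison on the probe set used. Capitals mark the motif matches in either orientation. SDHA (chr5:218070-218369, plus strand) holds 4 NRF1 matches, each starting 49 bases after the one before it. UQCRC1 (chr3:48609597-48609896, minus strand) holds 1 NRF1 match before its start and 1 YY1 match after it, COX4I1 (chr16:85799445-85799744, plus strand) 1 GABPA match just after its start and CYCS (chr7:25125211-25125510, minus strand) none.
SDHA: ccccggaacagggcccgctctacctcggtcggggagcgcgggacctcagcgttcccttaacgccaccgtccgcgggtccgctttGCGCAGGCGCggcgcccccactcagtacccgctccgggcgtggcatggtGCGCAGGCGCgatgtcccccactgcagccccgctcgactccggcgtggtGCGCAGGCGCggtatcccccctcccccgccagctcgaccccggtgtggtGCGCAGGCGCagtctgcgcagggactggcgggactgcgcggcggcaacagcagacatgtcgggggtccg
UQCRC1: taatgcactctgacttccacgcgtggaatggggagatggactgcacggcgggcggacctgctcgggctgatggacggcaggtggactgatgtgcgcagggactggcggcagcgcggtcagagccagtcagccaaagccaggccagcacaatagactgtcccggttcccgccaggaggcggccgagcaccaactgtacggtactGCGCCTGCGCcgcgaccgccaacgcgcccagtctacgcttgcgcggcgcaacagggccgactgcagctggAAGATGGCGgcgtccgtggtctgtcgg
CYCS: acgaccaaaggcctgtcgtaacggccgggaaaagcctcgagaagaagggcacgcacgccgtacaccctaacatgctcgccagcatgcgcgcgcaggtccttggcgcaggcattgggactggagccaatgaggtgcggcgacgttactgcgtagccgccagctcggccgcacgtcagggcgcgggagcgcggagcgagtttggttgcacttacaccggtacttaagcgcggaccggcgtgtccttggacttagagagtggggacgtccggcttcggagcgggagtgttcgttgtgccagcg
COX4I1: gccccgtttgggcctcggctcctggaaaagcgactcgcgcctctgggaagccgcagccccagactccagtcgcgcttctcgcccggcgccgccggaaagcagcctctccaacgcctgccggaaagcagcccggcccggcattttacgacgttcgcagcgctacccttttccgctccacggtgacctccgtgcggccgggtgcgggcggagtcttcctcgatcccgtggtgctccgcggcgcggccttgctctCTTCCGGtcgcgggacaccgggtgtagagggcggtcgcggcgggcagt

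The members were abundant and moved within narrow limits. Over the 16 groups the mean level of a member spanned between 0.26 (COX6A2) and 1.69 (ATP5MC1) on the log2 scale. Averaged over the 40 protein-coding members, the level was lowest after high-dose Nnm at 48 h, at 11.96 ± 0.12, and highest in the Nnm controls at 24 h, at 12.43 ± 0.05 (SD, n = 3 each). The 48 h groups of CsA (12.07 ± 0.04), Ra (12.11 ± 0.27), Fk (12.13 ± 0.09) and both of their controls (12.14 ± 0.07 and 12.15 ± 0.12) lay within 0.08 of each other, no more than the SD of most of them. The same average was lowest after high-dose Nnm at 48 h for complexes II, III and V and for CYCS, but for complex IV Fk at 48 h (12.01 ± 0.11) and its controls (12.01 ± 0.12) were as low as high-dose Nnm at 48 h (12.02 ± 0.02). Sets were compared with each other only in this description.

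Tissue-restricted isoforms of complex IV were near the floor of the scale. COX4I2, the isoform of subunit 4 typical of lung, was between 2.99 and 4.35 in the 48 arrays, and its highest value came from control replicate 3 of the Fk and Ra set at 48 h. The heart and muscle isoform COX7A1 lay between 2.11 and 2.29, and the testis isoform COX6B2 between 2 and 3.35. COX7B2, COX8C, the pseudogene COX6A1P1 and the single-symbol probe set of ATP5MF also failed the filter. COX6A2, the heart and muscle isoform of subunit 6A, passed it with group means of 4.71 to 4.97 in all 16 groups. A probe set listed for both ATP5MF and ARMC2-AS1, left out by the single-symbol rule, averaged 12.49. That probe set was lower with the high dose of Nnm at 48 h (-0.50, limma adjusted p = 0.03694). A probe set shared by UQCRH and UQCRHL, left out likewise, averaged 13.74 and changed by -0.18 there without being called.

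**Figure D1:**
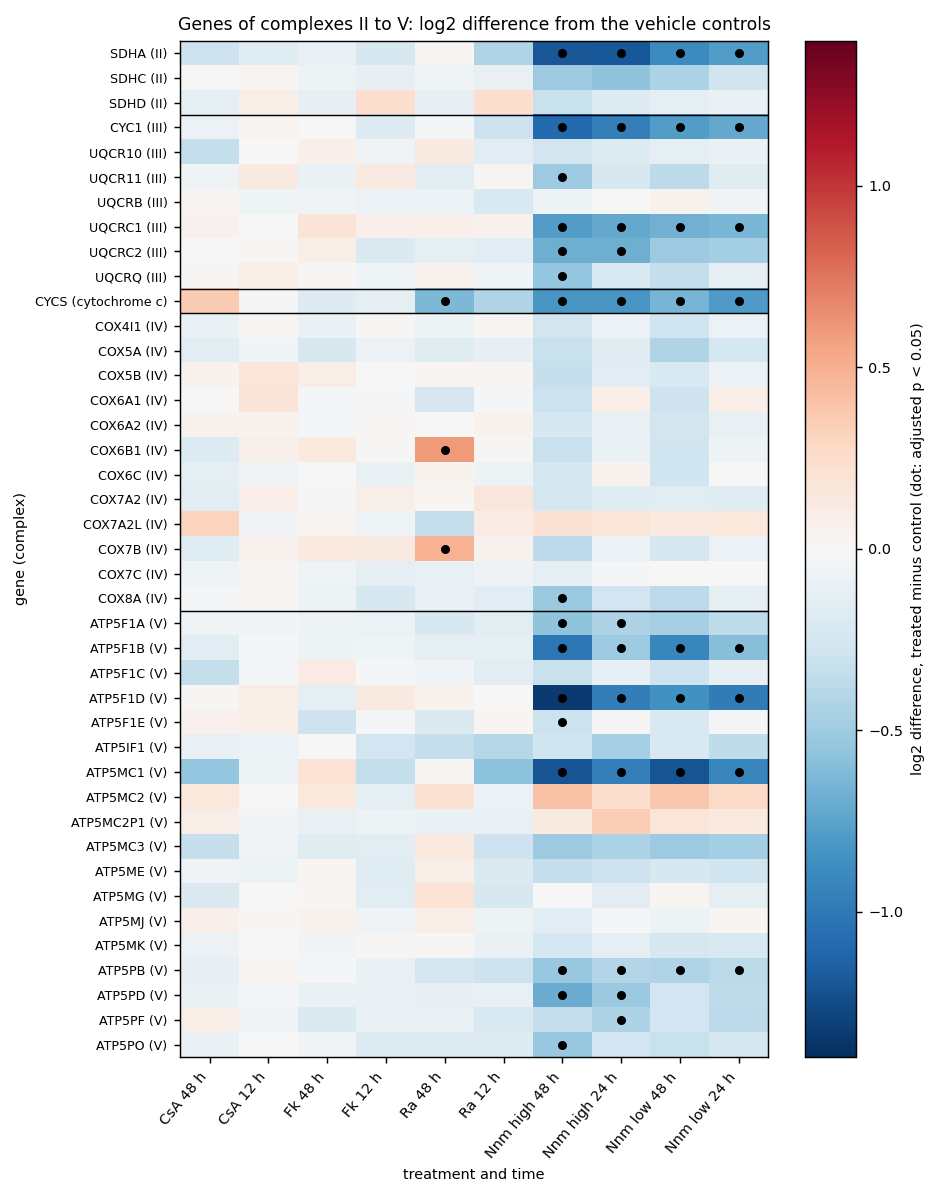
Log2 difference from the vehicle controls of the same set and time (colour) for the 41 members (rows, by complex) in the 10 treatment comparisons (columns); black dots mark an adjusted p under 0.05. Dots are concentrated in the 4 Nnm columns on the right, where all called members fell, with 3 more dots for Ra at 48 h and none for CsA, Fk or Ra at 12 h.

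After Nnm, all called members were lower than in the vehicle controls. Of the 41 members, 8 fell and none rose with the low dose at 24 h (19.5%, against 8.29% of all genes called in either direction and 4.71% called lower), and 8 fell and none rose with the low dose at 48 h (against 5.22% called and 2.45% called lower). With the high dose 12 fell at 24 h (29.3%, against 23.1% called and 12.5% called lower) and 16 fell at 48 h (39%, against 16.8% called and 7.88% called lower). The same 8 members fell in all 4 comparisons: SDHA of complex II, CYC1 and UQCRC1 of complex III, cytochrome c (CYCS), and ATP5F1B, ATP5F1D, ATP5MC1 and ATP5PB of complex V. A further 3 fell in 2 comparisons, 6 fell in 1 and 24 fell in none. The comparisons of both doses at a time share their controls, so their values are set side by side and are not independent.

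The median change of the members was -0.17 with the low dose at 24 h, -0.28 with the low dose at 48 h, -0.20 with the high dose at 24 h and -0.33 with the high dose at 48 h. The medians of all genes tested were 0.01, 0.02, -0.01 and 0.02. All 3 treated arrays lay below all 3 control arrays for 17 members (low dose, 24 h), 27 (low dose, 48 h), 19 (high dose, 24 h) and 30 (high dose, 48 h). Of all genes, 18%, 15.3%, 19.2% and 16.4% separated in that direction in these comparisons. By brightness, at the high dose and 48 h, 7 of 13 members with a mean under 12 fell (median change -0.51), against 4 of 13 with a mean over 13 (median -0.25). Whether brightness bears on the calls was not tested. Beside these results, of 10 measured markers of the epithelial line 1 rose with the high dose at 48 h and none was called in the other 3 comparisons, where the median of the list was -0.59 with the high dose at 24 h. The endothelial marker PECAM1, between 3.79 and 5.43 in all arrays, rose by 0.82 with the high dose at 48 h, and the part of these markers in the result was not tested.

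The replicate numbers pair the arrays of the Nnm set, and with the number as a block the counts were 13 members at the low dose and 24 h, all lower (against 18% of all genes called in that fit), 15 at the low dose and 48 h, of which 14 fell (13%), 17 at the high dose and 24 h, of which 16 fell (33.7%), and 25 at the high dose and 48 h, of which 24 fell (27.4%). Each member called without the block was also called with it. The exceptions to the downward direction were ATP5MC2, which rose in the blocked fit at 48 h with both doses (0.38 at the low dose, adjusted p = 0.02355, and 0.41 at the high dose, adjusted p = 0.007587), and the pseudogene ATP5MC2P1 with the high dose at 24 h (0.35, adjusted p = 0.03958). Neither was called without the block.

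Counts depended on single arrays. At the low dose and 24 h the count was 2 without control replicate 1, control replicate 3 or low-dose replicate 1, 3 without low-dose replicate 3 and 5 without control replicate 2. At the low dose and 48 h it was 1 without low-dose replicate 1, 3 without control replicate 1 or low-dose replicate 3 and 4 without control replicate 3. At the high dose it was 5 at 24 h and 10 at 48 h without high-dose replicate 1. ATP5F1B stayed called with any 1 array left out in all 4 comparisons, as did SDHA, CYC1 and CYCS in both high-dose comparisons. At the high dose and 48 h, 9 of the 16 called members did so: SDHA, CYC1, UQCRC1, CYCS, ATP5F1B, ATP5F1D, ATP5MC1, ATP5PB and ATP5PD.

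In complex II, SDHA, the flavoprotein that oxidises succinate and also serves the citric acid cycle, fell by 1.20 ± 0.21 (SE) on the log2 scale with the high dose at 48 h (adjusted p = 0.0002631). Its values were 9.31, 10.01 and 9.38 in high-dose arrays, against 10.74, 10.74 and 10.8 in control arrays. The groups did not overlap, and high-dose replicate 2 was the highest of the treated arrays. At 24 h the high-dose arrays read 9.45, 10.34 and 9.42, against 10.89, 11.04 and 10.84 in the controls, a change of -1.19. With the low dose SDHA read 9.6, 10.22 and 9.8 at 48 h, against the same controls (-0.89), and 9.93, 10.53 and 9.95 at 24 h (-0.79). Replicate 2 was again the highest treated array at both times and doses. The only SDHA probe set carries the suffix x_at, which marks probes that can also match related sequences such as SDHA pseudogenes.

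The membrane anchors of complex II, SDHC and SDHD, were not called on the probe sets used. SDHC changed by -0.57 with the high dose at 24 h and by -0.51 at 48 h, and both passed in the blocked fit (adjusted p = 0.005973 and 0.01424). A further 3 SDHC probe sets (-0.79, -0.71 and -0.74) were called lower without the block with the high dose at 24 h. SDHD changed by -0.18 at 24 h and by -0.32 at 48 h with the high dose.

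In complex III, CYC1 and the core proteins gave 3 of 3 calls with the high dose at 48 h, and the small subunits 2 of 4. CYC1, the cytochrome c1 that passes electrons to cytochrome c, read 10.23, 10.56 and 10.13 with the high dose at 48 h, against 11.57, 11.17 and 11.46 in the controls, a fall of 1.09 ± 0.18 (SE) on the log2 scale (adjusted p = 0.0001355). At 24 h it read 10.45, 11 and 10.44 with the high dose, against 11.76, 11.44 and 11.55 in the controls (-0.95). High-dose and control values were separate at both times. With the low dose it read 10.92, 11.03 and 10.67 at 24 h (-0.71), and 10.53, 10.69 and 10.63 at 48 h (-0.78), below all controls of the same time.

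UQCRC1, a core protein of complex III, read 11.01, 11.15 and 11.06 with the high dose at 48 h, against 12.03, 11.56 and 11.98 in the controls (-0.79 ± 0.18 SE, adjusted p = 0.003612). With the low dose at 48 h its arrays read 11.21, 11.13 and 11.23, all below the controls. At 24 h UQCRC1 read 11.24, 11.49 and 11.55 with the high dose and 11.59, 11.49 and 11.43 with the low dose, against 12.29, 11.97 and 12.17 in the controls, again without overlap. The other core protein, UQCRC2, fell with the high dose at both times (-0.68 each), and with the low dose it changed by -0.47 at 24 h and by -0.51 at 48 h, which passed in the blocked fit (adjusted p = 0.009966 and 0.006918). Its second probe set was called without the block with the low dose at 48 h (-0.60, adjusted p = 0.0348). Among the small subunits, UQCR11 (-0.51) and UQCRQ (-0.55) fell with the high dose at 48 h, UQCR10 read -0.26 there without passing, and UQCRB, which lies near the ubiquinone-binding site, stayed between -0.07 and 0.05 in the 4 comparisons.

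CYCS, the mobile electron carrier cytochrome c, which also takes part in apoptosis once released from mitochondria, read 11.9, 12.38 and 11.9 with the high dose at 48 h, against 12.85, 12.89 and 12.87 in the controls. It fell by 0.81 ± 0.17 (SE) on the log2 scale there (adjusted p = 0.001257), and the groups did not overlap. At 24 h the high-dose arrays read 12.11, 12.35 and 12.24, against 13.03, 12.99 and 13.12 in the controls (-0.81). With the low dose CYCS read 12, 12.56 and 12.2 at 24 h (-0.79), and 12.01, 12.42 and 12.23 at 48 h (-0.65), below all controls of the same time.

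Among the 12 nuclear subunits of complex IV, none was called with the low dose at either time or with the high dose at 24 h by limma (0, 6 and 0 at an unadjusted p under 0.05), and 1, COX8A, was called with the high dose at 48 h. COX8A, a small membrane-spanning subunit, read 11.92, 12.25 and 11.86 there, against 12.58, 12.41 and 12.62 in the controls (-0.52 ± 0.16 SE, adjusted p = 0.01956), without overlap. COX4I1, the ubiquitous isoform of the regulatory subunit 4, read 13.25, 13.23 and 13.26 with the high dose at 48 h, against 13.52, 13.39 and 13.58 in the controls. These arrays separated, but the change of -0.25 was not called, whereas the about equally bright second COX4I1 probe set was called lower there (-0.30, adjusted p = 0.04581). At 48 h 11 of the 12 subunits were negative with both doses, with a median of -0.28 at the high dose, and in the blocked fit COX5A, COX6A1 and COX7B fell as well. With the low dose at 48 h, however, COX7B was not called in the blocked limma fit (-0.23, adjusted p = 0.1644). COX7A2L, also known as SCAF1, which joins complexes III and IV into supercomplexes, was positive in all 4 comparisons (0.14 to 0.21) without being called in any. Whether complex IV differs from the other complexes was not tested.

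**Figure D2:**
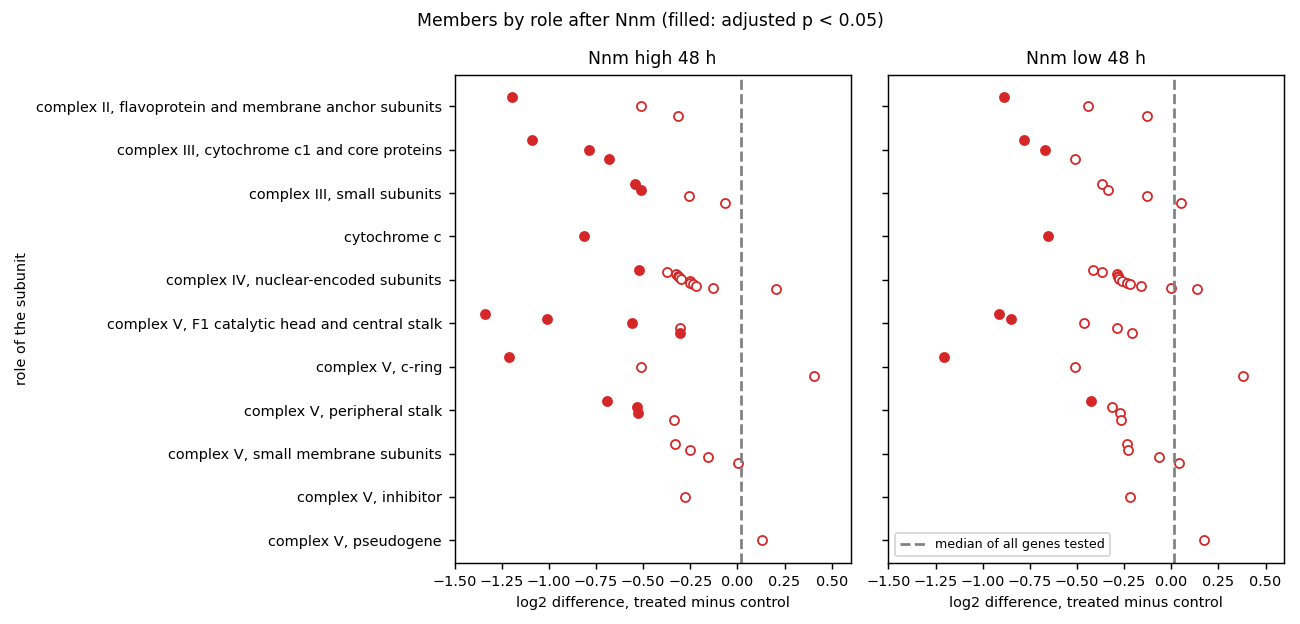
Log2 difference from the vehicle controls for each member (points; filled where the adjusted p was under 0.05), grouped by the role of the subunit, for the high dose (left) and the low dose (right) of Nnm at 48 h; the dashed line is the median of all genes tested. At the high dose ATP5F1D, ATP5MC1, SDHA, CYC1, ATP5F1B and CYCS lie furthest to the left, the complex IV subunits cluster between -0.52 and 0.21 at the high dose, and ATP5MC2 lies to the right of the line.

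In complex V the calls came from the catalytic head, the central stalk, the c-ring and the peripheral stalk. ATP5F1B, the catalytic beta subunit, read 11.75, 11.91 and 11.77 with the high dose at 48 h, against 12.93, 12.65 and 12.88 in the controls, a fall of 1.01 ± 0.13 (SE) on the log2 scale with the lowest adjusted p of any member (5.071e-06). With the low dose at 48 h it read 11.65, 12.06 and 11.99 (-0.92, adjusted p = 4.131e-05). At 24 h its arrays read 12.5, 12.04 and 12.49 with the high dose and 12.32, 12.19 and 12.27 with the low dose, and all of them lay below the controls at 12.94, 12.77 and 12.86.

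ATP5F1D, the delta subunit of the central stalk, had the largest fall of any member with the high dose at 48 h, -1.34 ± 0.24 (SE, adjusted p = 0.0002631). Its values were 7.98, 8.01 and 7.59 in high-dose arrays, against 9.57, 8.64 and 9.37 in the controls. Control replicate 2 was the lowest control and still lay above all treated arrays. At 24 h it read 8.76, 8.11 and 8.6 with the high dose (-0.96) and 8.74, 8.16 and 8.51 with the low dose (-0.98), against 9.98, 8.87 and 9.5 in the controls. There treated and control replicate 2 were each the lowest of their group. The alpha subunit ATP5F1A fell with the high dose (-0.43 at 24 h and -0.56 at 48 h), and with the low dose it passed in the blocked fit (-0.36 at 24 h, adjusted p = 0.02603, and -0.46 at 48 h, adjusted p = 0.00619). ATP5F1E fell with the high dose at 48 h (-0.30), and the gamma subunit ATP5F1C read -0.31 there without passing except in the blocked fit (adjusted p = 0.03661).

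The genes for subunit c, ATP5MC1, ATP5MC2 and ATP5MC3, encode the same mature protein of the rotating ring with different import peptides, and are given side by side. ATP5MC1 read 7.96, 8.64 and 8.35 with the high dose at 48 h, against 9.42, 9.54 and 9.61 in the controls (-1.21 ± 0.27 SE, adjusted p = 0.002115). With the low dose it read 7.65, 8.88 and 8.43 at 48 h, below the same controls (-1.21). At 24 h its arrays read 8.25, 9.16 and 8.8 with the high dose, against 9.7, 9.68 and 9.72 in the controls (-0.96). ATP5MC3 changed by -0.44 to -0.51 in the 4 comparisons, called in the blocked fit, and a nearly as bright second probe set was called without it with the high dose at 48 h (-0.58, adjusted p = 0.04892). ATP5MC2 read 13.14, 13.04 and 13.03 with the high dose at 48 h, against 12.84, 12.53 and 12.61 in the controls, so its arrays separated upward (0.41).

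In the peripheral stalk, which holds the head still, ATP5PB fell in all 4 comparisons by between 0.38 and 0.53 on the log2 scale. It read 12.8, 13.2 and 12.93 with the high dose at 48 h, against 13.46, 13.56 and 13.51 in the controls. The low-dose calls of ATP5PB were kept in 1 of 6 runs that left out 1 array, at each time, and were lost with the set fitted alone. At 24 h the low-dose call (limma adjusted p = 0.04509) was also lost with arrays centred and with quantile normalization. ATP5PD fell with the high dose at both times (-0.52 at 24 h and -0.69 at 48 h), ATP5PO at 48 h (-0.53) and ATP5PF at 24 h (-0.43). Of the members, none of the 4 small membrane subunits ATP5ME, ATP5MG, ATP5MJ and ATP5MK was called without the block. ATP5IF1, the inhibitor of ATP hydrolysis, was not called without it either (-0.46 with the high dose at 24 h, -0.28 at 48 h). With the block ATP5ME fell with the low dose at 24 h (adjusted p = 0.04843) and with the high dose at 24 h (adjusted p = 0.02345) and 48 h (adjusted p = 0.01317), and ATP5IF1 fell with the high dose at 24 h (adjusted p = 0.02284).

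**Figure D3:**
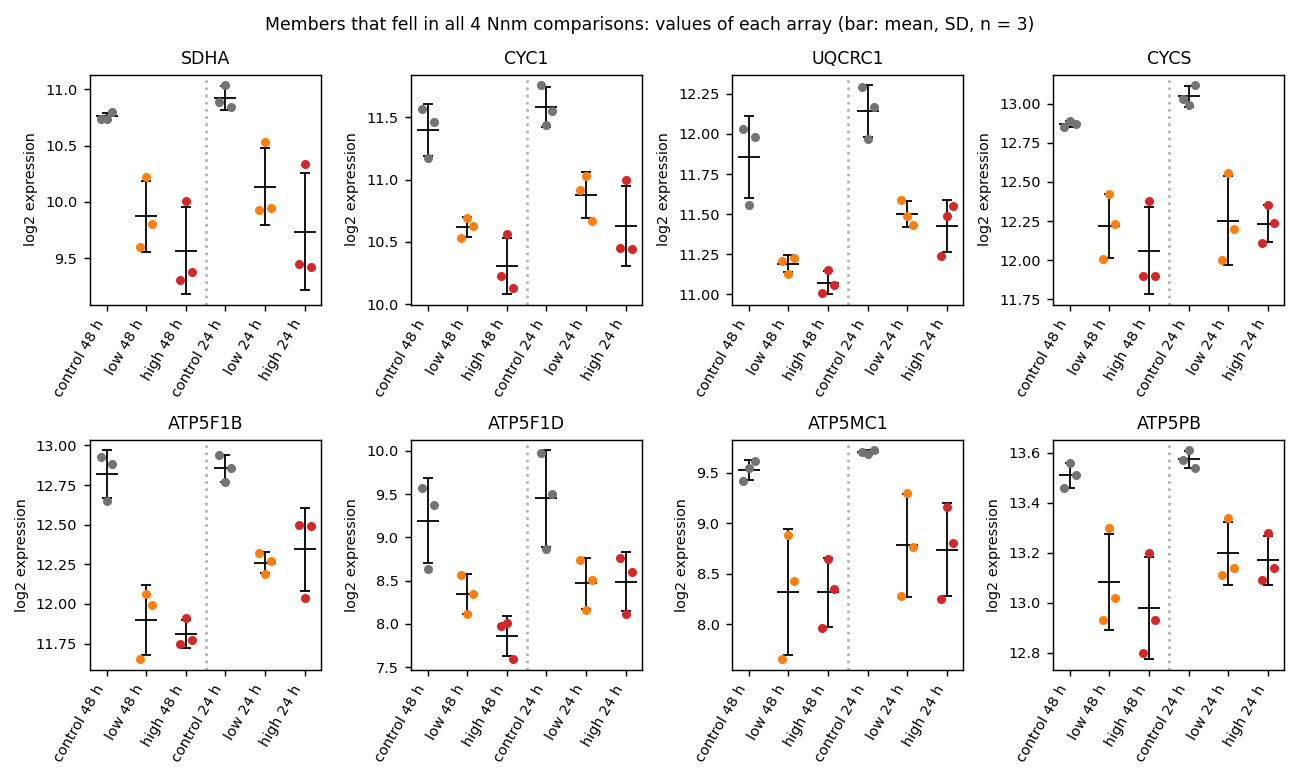
Log2 expression of the 8 members that fell in all 4 Nnm comparisons; points are arrays, bars the mean and SD of n = 3, by dose (grey vehicle control, orange low, red high), with 48 h left of the dotted line and 24 h right of it. In every panel the treated arrays lie below the control arrays of the same time, and for SDHA, CYC1, CYCS, ATP5MC1 and ATP5PB replicate 2 is the highest treated array.

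No member was called between the doses or the times of Nnm. High against low dose, limma called 0 of 41 members at 24 h (0 at an unadjusted p under 0.05; 0.00881% of all genes called) and 0 at 48 h (2 unadjusted; 0.0176%), and with the replicate block also 0 at both times. The 95% intervals of these differences ran from -0.83 to 0.5 at 24 h and from -0.96 to 0.54 at 48 h over the members, which are the sizes of difference the arrays leave possible. The largest differences between doses were those of SDHA at 24 h (-0.40) and of ATP5F1D at 48 h (-0.48). Of the treatment effects at 48 h against 24 h, 0 members were called for the low dose (1 unadjusted; 0% of all genes) and 0 for the high dose (3 unadjusted; 0.00881%). At the high dose 34 of the 41 members had the more negative value at 48 h, and at the low dose 30. The same count over all genes was not made, and this order was not tested.

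Other genes of the pathway are given as counts of lists, to be read beside the 12.5% (24 h) and 7.88% (48 h) of all genes called lower with the high dose, and 4.71% (24 h) and 2.45% (48 h) with the low dose. In complex I, 11 of 32 genes fell with the high dose at 24 h and 14 at 48 h, and 4 at each time with the low dose, with no rises. Of 13 citric acid cycle genes 7 fell and 1 rose at 24 h and 8 fell at 48 h with the high dose, led by SUCLG2 (-1.57), a subunit of succinyl-CoA ligase, and DLD (-1.13), a subunit of the dehydrogenase complexes, at 48 h. Of 42 assembly factors 14 fell and 1 rose at 24 h and 6 fell and 2 rose at 48 h, and of 76 genes with symbols that start with MRPL or MRPS, which include the antisense RNA MRPL20-AS1 beside the mitochondrial ribosomal proteins, 38 fell at 24 h and 20 at 48 h. The 71 genes with symbols that start with RPL or RPS and a digit, which are mostly cytosolic ribosomal proteins but include S6 kinases and pseudogenes, gave 2 falls and 1 rise at 24 h and 1 rise at 48 h. Of 16 glycolytic genes, 7 fell at 24 h and 6 at 48 h.

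Among carriers, UCP2, an inner membrane carrier, fell by 1.70, ETFB, a subunit of the electron transfer flavoprotein, by 1.12 and SLC25A4, an ADP/ATP exchanger that supplies complex V, by 1.07 on the log2 scale with the high dose at 48 h, and 5 of the 12 listed carriers and channels fell there. Of 13 genes of coenzyme Q synthesis, whose product links complexes I and II to III, 4 fell and 1 rose, with COQ3 at -1.58 and COQ2 at -1.32. Of 15 regulators of nuclear respiratory genes 4 rose and 4 fell with the high dose at 24 h, and 2 rose and none fell at 48 h. Of all genes, 23.1% and 16.8% were called in either direction in these comparisons. The rises at 24 h included GABPB2 (1.97) and GABPA (1.16), partners in the GABP factor, and the falls included TFB1M (-1.39), TWNK (-1.13) and the coactivator PPRC1 (-1.11).

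Among dimmer probe sets called with the high dose at 48 h, those of COX7B, UQCR10 and ATP5MC3 read the largest changes. For COX7B a dimmer probe set read 2.8, 6.56 and 3.21 with the high dose at 48 h, against 8.08, 8.35 and 7.77 in the controls (-3.88, adjusted p = 0.0006576), where the probe set used changed by -0.37. For UQCR10 the second probe set read 3.16, 5.84 and 2.32, against 7.2, 7.21 and 6.44 in the controls (-3.18, against -0.26 for the one used), and for ATP5MC3 it read 6.38, 7.86 and 6.29, against 8.71, 8.86 and 8.65 (-1.89, against -0.51). In all 3, high-dose replicate 2 was the highest treated array. For COX7B and UQCR10 the other high-dose arrays lay below the filter of log2 4, near the floor of the scale. The sizes of these falls therefore cannot be read. Dimmer probe sets of CYCS (-1.255, against -0.81) and COX5A (-1.10, against -0.31) also read larger falls there than the ones used. They averaged 3.45 and 3.9 over the arrays, near the floor of the scale. Which transcripts the dimmer probe sets read was not tested.

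Ra at 48 h gave 3 called members of 41 (7.32%, against 18.5% of all genes called): COX7B and COX6B1 were higher and CYCS was lower. COX6B1, which caps the intermembrane face of complex IV, read 12.48, 12.28 and 12.76 with Ra, against 11.56, 11.68 and 12.49 in the controls (0.60 ± 0.17 SE, adjusted p = 0.01541). COX7B, a small membrane subunit, read 12.69, 12.42 and 12.9, against 11.99, 11.99 and 12.56 in the controls (0.49 ± 0.14 SE, adjusted p = 0.01325). In both genes control replicate 3 stood well above the other controls and overlapped the Ra arrays. CYCS read 12.83, 12.53 and 12.81 with Ra, against 13.5, 13.49 and 13.04 in the controls (-0.62 ± 0.17 SE, adjusted p = 0.009986), without overlap. Dimmer probe sets of ATP5IF1 (-0.465, adjusted p = 0.04337), UQCR11 (-0.86, adjusted p = 0.04035) and UQCRB (-0.97, adjusted p = 0.03034) were also called lower. The probe sets used for these genes changed by -0.33, -0.15 and -0.08 and were not called. In each dimmer probe set Ra replicate 2 was the lowest Ra array.

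The calls of COX6B1, COX7B and CYCS were not stable. With the mean of each gene's probe sets COX7B read 0.20 (adjusted p = 0.7918) and CYCS -0.23 (adjusted p = 0.4284), and neither was called, while COX6B1 was. Without Ra replicate 2, the array that stood apart, 3 members were higher and none lower, and CYCS read -0.53 (adjusted p = 0.07669). COX6B1 read 0.71 (adjusted p = 0.02094) and COX7B 0.61 (adjusted p = 0.009561) there. Without control replicate 1 or without control replicate 2 no member was called, and without Ra replicate 3 neither COX6B1 (adjusted p = 0.08114) nor COX7B (adjusted p = 0.07933) was. The median of all genes was -0.18 in this comparison and that of the members -0.06; with each array centred on its median the members' median was 0.23, 3 members were higher and none lower, and CYCS read -0.34 (adjusted p = 0.1988).

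At 12 h limma called 0 members with Ra (3 at an unadjusted p under 0.05; 0.0704% of all genes called). The members leaned downward, with a median of -0.11 against 0.02 over all genes, 17 of 18 complex V genes negative and 13 of 41 members with all Ra arrays below all controls (15% of all genes). The lowest were ATP5MC1 (-0.58), SDHA (-0.42) and CYCS (-0.42, adjusted p = 0.5075). CYCS read 12.85, 12.87 and 12.75 with Ra at 12 h, against 13.28, 13.24 and 13.2 in the controls, and SDHA averaged 10.2 ± 0.161 with Ra, against 10.6 ± 0.0327 in the controls (SD, n = 3 each). Both separated from their controls without being called. With Fk at 12 h, against the same control arrays, the members also leaned downward, with a median of -0.08.

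Fk was followed by no called member by limma at 12 h (0 at an unadjusted p under 0.05; 0% of all genes called) or at 48 h (1 unadjusted; 0% of all genes called), with medians of -0.08 and -0.03. The single gene was ATP5F1E at 48 h (-0.29, adjusted p = 1). Ra against Fk, limma called 0 members at 12 h (0 unadjusted; 0.00881% of all genes) and 0 at 48 h (4 unadjusted; 17.3%). The 95% intervals of the differences between these compounds ran from -0.79 to 0.46 at 12 h and from -0.79 to 0.82 at 48 h. The extremes at 48 h were CYCS (-0.44) and COX6B1 (0.46), and the 48 h count was 8, all higher with Ra, once arrays were centred, but 0 when Ra replicate 2 was also left out. It was 4 without Fk replicate 3 and 1 without Ra replicate 1.

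CsA gave 0 called members by limma at 12 h (0 at an unadjusted p under 0.05; 0% of all genes called) and at 48 h (4 unadjusted; 1.02%), also with the replicate block. The lowest adjusted p at 48 h was that of ATP5F1C (-0.33, adjusted p = 0.2164). ATP5MC1 read 8, 8.03 and 8.25 with CsA at 48 h, against 8.71, 8.39 and 8.81 in the controls (-0.54, adjusted p = 0.4263), and these arrays separated. CYCS separated in the other direction, at 13.06, 13.17 and 13.19 with CsA, against 12.62, 12.8 and 12.94 in the controls (0.35, adjusted p = 0.4037). Treatment effects at 48 h against 12 h were called for 0 members with CsA (0 unadjusted), 0 with Fk (0 unadjusted) and 0 with Ra (4 unadjusted), where 0%, 0% and 3.62% of all genes were called.

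Some members also changed with time in vehicle. Between vehicle controls at 48 h and 12 h, 6 of 41 members were called in the CsA set (14.6%, against 13.7% of all genes) and 6 in the Fk and Ra set (14.6%, against 19.8%), shares near those of all genes. Both sets called ATP5MC1, ATP5MC3, UQCR10 and COX7B lower and COX7A2L higher. ATP5MK was called lower in the CsA set (-0.29) and read -0.26 in the Fk and Ra set, where COX6B1 was called lower (-0.70). Differences between the sets were not tested. Between the Nnm controls at 48 h and 24 h limma called 0 members (1 at an unadjusted p under 0.05; 0% of all genes).

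ATP5MC1 read 8.71, 8.39 and 8.81 in the CsA set's controls at 48 h, against 9.69, 9.79 and 9.86 at 12 h (-1.15 ± 0.27 SE, adjusted p = 0.004396). In the Fk and Ra set it read 8.23, 7.93 and 8.91 at 48 h, against 9.34, 9.61 and 9.55 at 12 h (-1.14 ± 0.27 SE, adjusted p = 0.002733). The times did not overlap in either set. COX7A2L read 11.66, 11.83 and 11.42 in the CsA set's controls at 48 h, against 11.11, 11.14 and 10.83 at 12 h (0.61 ± 0.15 SE, adjusted p = 0.004966), and in the Fk and Ra set it was higher by 0.50 (adjusted p = 0.01269). ATP5MC3 changed by -0.67 and -0.65, UQCR10 by -0.61 and -0.55 and COX7B by -0.50 and -0.60 in the CsA set and the Fk and Ra set.

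In the CsA set, whose replicate numbers pair the arrays, the block gave 12 called members, 11 lower and 1 higher (against 24.1% of all genes), and added SDHA (-0.59, adjusted p = 0.008085), CYC1 (-0.43, adjusted p = 0.03354) and UQCRC1 (-0.49, adjusted p = 0.01471) among others. The count was 2 without CsA control replicate 2 at 48 h and 4 without CsA control replicate 1 at 12 h. In the Fk and Ra set it was 2 without control replicate 1 at 48 h, 4 without control replicate 2 at 48 h and 11 without control replicate 3 at 48 h.

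**Figure D4:**
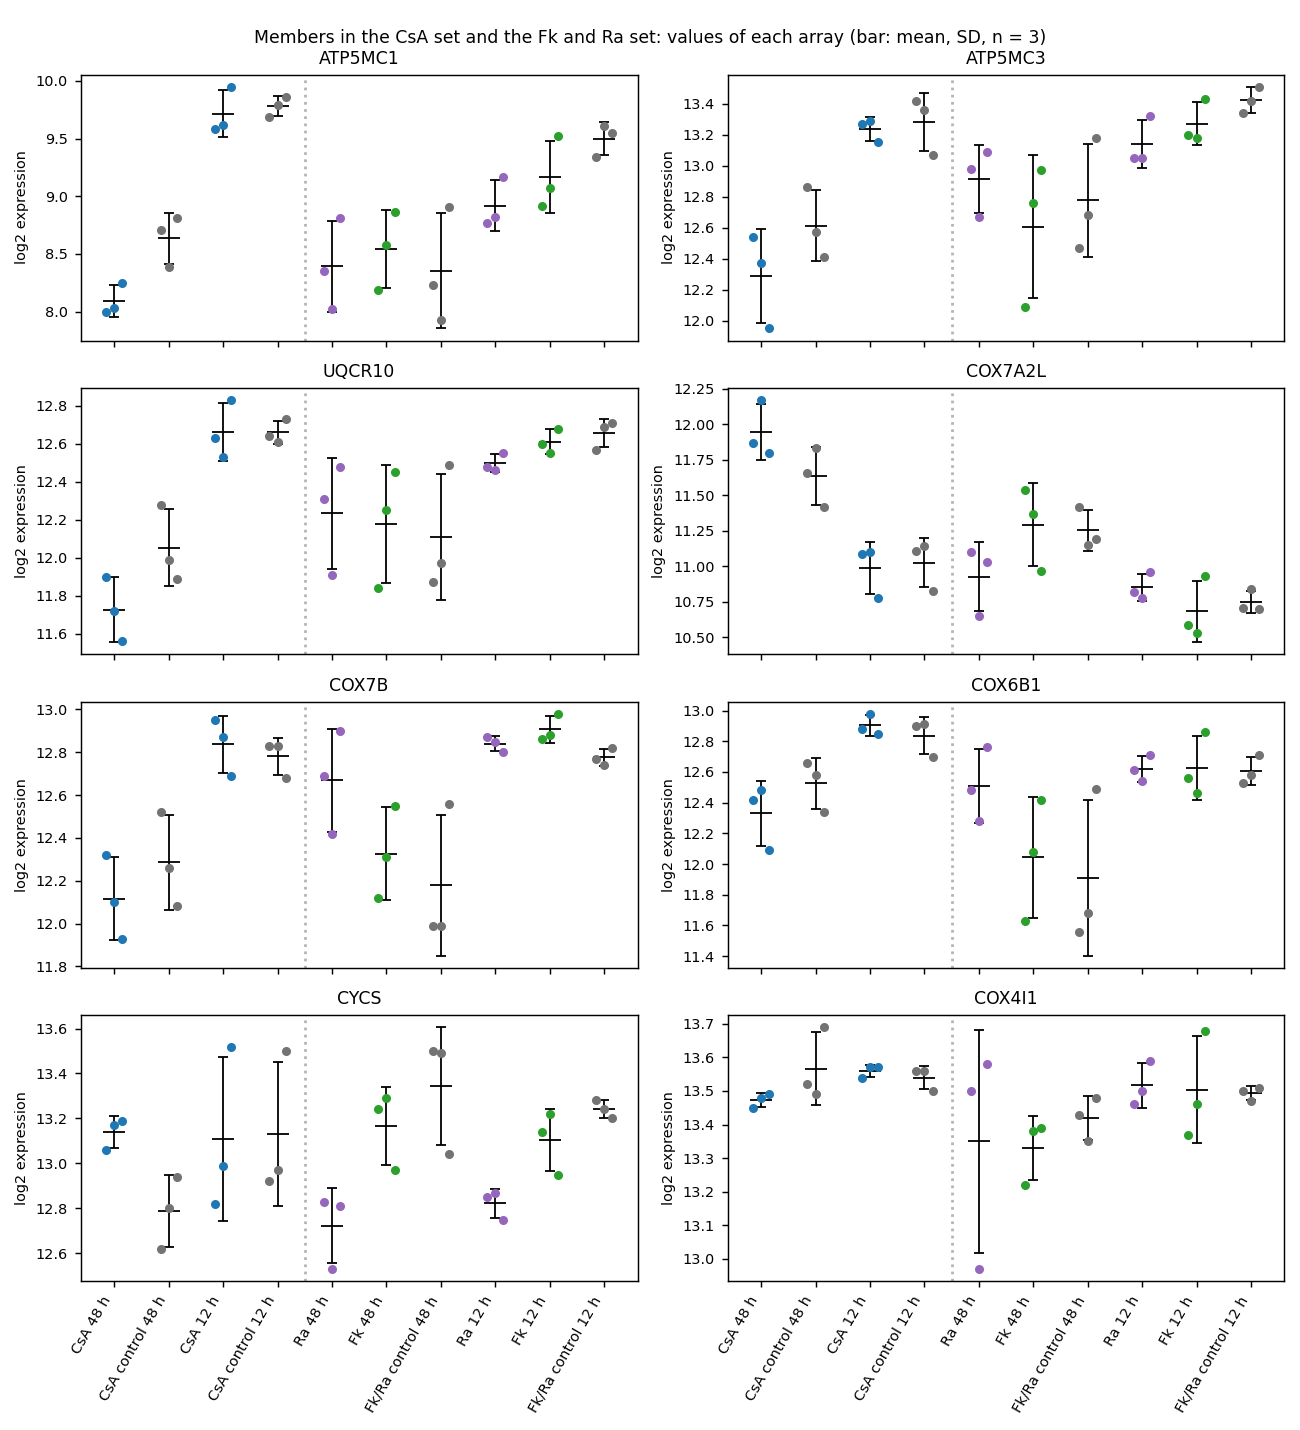
Log2 expression of 8 members in the CsA set (left of the dotted line) and the Fk and Ra set (right of it); points are arrays, bars the mean and SD of n = 3, with treated groups left of their controls and 48 h left of 12 h. ATP5MC1, ATP5MC3, UQCR10 and COX7B lie lower and COX7A2L higher in the 48 h controls than in the 12 h controls of both sets, and COX4I1 spans 0.34 between the lowest and highest of all 16 group means.

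The mitochondrial genome encodes the catalytic core of complex IV and part of complex V, and 4 of these genes on the array, COX1, COX2, COX3 and ATP6, were looked at after the nuclear results were seen. None was called by limma in the 10 treatment comparisons. COX3 changed by -0.39 with the high dose of Nnm at 48 h (adjusted p = 0.2113), and COX1, near the top of the scale, averaged 15.08 ± 0.05 there, against 15.49 ± 0.26 in the controls (SD, n = 3 each; limma adjusted p = 0.3294).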

How the data were processed

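Gene expression was measured on Affymetrix arrays from total RNA of HK-2 cells. The values are the deposited log2 expression values, made by the authors with GCRMA per the submitters' processing notes, whose version is not given in the sources used here. Of 54675 probe sets, 41091 had 1 symbol, 1801 several and 11721 none listed. Control probe sets (62) were left out. Probe sets above log2 4 in at least 3 arrays were kept (20960), and the one of highest mean stood for each of 11356 genes. GCRMA draws dim values towards a floor, so differences near it are compressed.

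All 48 arrays and 16 groups were fitted once with limma 3.58.1 (lmFit, eBayes) in R 4.3.3, with 22 contrasts, and p-values were adjusted by Benjamini-Hochberg over all genes at 0.05. The script was tested on simulated data. The members, lists and tests were chosen with earlier results of these data known, and the grouping by subunit role was drawn up after values were seen. Array values are given for up to 6 called members per direction with the largest change in a treatment comparison, for SDHA, CYCS and COX4I1, and for the alternative isoforms as ranges; further members were chosen after their values were seen. Up to 3 called genes per direction of each other list may be named.

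The replicate number was checked as a pairing by correlating deviations from group means. All 18 same-numbered pairs of the CsA set (0.24 to 0.93) and all 45 of the Nnm set (0.14 to 0.79) exceeded 0.1, so in those sets the numbers were taken to pair the arrays. Alternatives were arrays centred on their median, quantile normalization, no filter, the mean of a gene's probe sets, each set alone, the replicate block and leaving out each array.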

Additional observations from a re-analysis of the deposited data

Results flagged for a closer look

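A second, dimmer probe set of ATP5F1E, the epsilon subunit of the ATP synthase, read 4.14, 3.56 and 4.97 with the high dose of Nnm at 24 h, against 3.34, 3.56 and 3.74 in the controls. The fit gave a difference of 0.68 (limma, adjusted p = 0.04721), in a probe set other than the one used for the gene, which changed by 0.01 there. All 3 controls and high-dose replicate 2 lay below the filter of log2 4, near the floor of the scale, so the size of this difference cannot be read.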

How the results depend on the processing

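The members' medians near 0 changed sign in 10 settings, those of CsA at 12 h (to -0.029 at the lowest), Fk at 48 h (to 0.037 at the highest) and Ra at 48 h (to 0.228 at the highest). The 4 Nnm medians kept their sign in the settings run. Of 564 values of named genes none changed sign, 451 kept their call and 113 lost it. With the replicate block the members called were 13 (low dose, 24 h), 15 (low dose, 48 h) and 25 (high dose, 48 h) for Nnm, 12 for controls over time in the CsA set and 12 in the Fk and Ra set, 4 for Ra against Fk at 48 h and 1 for Ra over time. In the Fk and Ra set 19 of 45 same-numbered pairs exceeded 0.1 (range -0.18 to 0.76). The numbers were therefore taken to pair the arrays in the Nnm and CsA sets only, and whether some Fk and Ra arrays were paired is not known. With the mean of a gene's probe sets 13 members were called at the low dose of Nnm and 48 h. With each set fitted alone 1 was called for Ra at 48 h and 2 for controls over time in the Fk and Ra set. With arrays centred, 8 were called for Ra against Fk at 48 h and 2 for Ra over time, and the median of Ra at 48 h was 0.228. With quantile normalization 2 were called for Ra against Fk at 48 h. Leaving out 1 array at a time, the counts for Nnm ranged from 2 to 11 (low dose, 24 h), from 1 to 10 (low dose, 48 h), from 5 to 16 (high dose, 24 h) and from 10 to 21 (high dose, 48 h). Leaving out a replicate number of the whole Nnm set with the block, added after seeing the data, they ranged from 3 to 14, from 2 to 19 (lowest median -0.378), from 7 to 17 and from 11 to 23 in the same order. Without 1 array they ranged from 0 to 3 for Ra at 48 h, from 0 to 4 for Ra against Fk at 48 h, from 0 to 2 for Ra over time, from 0 to 1 for high against low dose at 24 h and at 48 h and for the high dose over time, from 2 to 7 for controls over time in the CsA set and from 2 to 11 in the Fk and Ra set. The cause of these changes was not tested. Dim probe sets lie at the floor of the scale, where changes cannot be read, and 3 arrays a group limit the precision.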
